A study of Mus musculus with 12 samples.

Results

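The core autophagy genes were 10 of the 35999 genes in the deposited expression table, taken by gene name for their places in autophagy: the starter kinase (Ulk1), the lipid kinase scaffold (Becn1), the conjugation enzymes and their substrates (Atg7, Atg3, Atg5, Atg12), the ATG8 proteins that coat the autophagosome (Map1lc3b, Gabarap, Gabarapl2) and the cargo receptor Sqstm1. RNA-seq was performed on LSK cells (lineage-negative, Sca-1-positive, KIT-positive cells, the bone marrow fraction that holds the blood stem cells and early progenitors), with 6 libraries labelled WT and 6 labelled Fancg KO, each library from its own mouse. The KO mice carried a Fancg-/- genotype, which removes a subunit of the Fanconi anemia core complex, and all 12 samples were untreated as far as the labels state. Strain, sex and age of the mice were not given in the sources used here. The comparison asked whether the transcripts of the autophagy machinery differed between Fancg KO and WT LSK cells.

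Autophagy delivers cytoplasm, proteins and whole organelles to the lysosome inside a double-membraned vesicle, the autophagosome. A kinase complex around ULK1 starts it, a lipid kinase complex with Beclin 1 marks the membrane, and a ubiquitin-like system then attaches ATG12 to ATG5 and the ATG8 proteins to lipid. In blood stem cells autophagy is known for clearing mitochondria and for keeping the cells' metabolism low, and mice that lack Atg7 or Atg5 in blood cells lose stem cell function.

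The sequences in front of 3 of the conjugation genes are shown because they hold the E-box CACGTG, the core of the element through which the factors TFEB and TFE3 are known to bind autophagy and lysosome genes, and the sequence in front of Ulk1 is shown because that gene had the largest difference between the labels. RefSeq promoter windows of GRCm38.p6, from 250 bases before to 50 bases after a gene's start, were matched for 8 of the 10 genes by symbol, and Becn1 and Atg12 had no entry. CACGTG, which reads the same on both strands, was present in the windows of Atg3 (2 matches), Atg5 and Atg7, and was not in those of Ulk1, Sqstm1, Map1lc3b, Gabarap and Gabarapl2. Of all 32817 windows of this length, 7.15% held it. The matches began 94 and 71 bases before the start of Atg3, 14 bases before that of Atg5 and 132 bases before that of Atg7. The Atg7 window lay inside the GENCODE gene model (chr6:114643097-114860614) and not at its outer end. The stretches of 80 bases around the matches, and the whole window of Ulk1, are printed 5′ to 3′ with CACGTG in capitals: Atg3 at chr16:45158709-45158788 on the plus strand, Atg5 at chr10:44268288-44268367 on the plus strand, Atg7 at chr6:114670927-114671006 on the plus strand and Ulk1 at chr5:110810032-110810331 on the minus strand.
Atg3: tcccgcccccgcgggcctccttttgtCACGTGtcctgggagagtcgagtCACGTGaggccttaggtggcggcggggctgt
Atg5: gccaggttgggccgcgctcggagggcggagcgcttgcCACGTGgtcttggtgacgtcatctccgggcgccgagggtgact
Atg7: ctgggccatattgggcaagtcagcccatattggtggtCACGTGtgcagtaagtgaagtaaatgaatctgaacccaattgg
Ulk1: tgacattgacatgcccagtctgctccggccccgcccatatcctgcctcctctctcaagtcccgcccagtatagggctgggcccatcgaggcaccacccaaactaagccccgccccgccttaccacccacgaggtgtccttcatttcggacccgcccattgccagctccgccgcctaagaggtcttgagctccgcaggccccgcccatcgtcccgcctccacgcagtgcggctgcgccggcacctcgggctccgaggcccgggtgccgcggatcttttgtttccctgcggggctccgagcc

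Library depth and identity came first. The totals corresponded to about 1235110 to 2471410 reads per library. The signal was taken to be an estimated read count divided by the library's size factor, a unit that was inferred. Fancg transcript did not separate the labels, with a signal of 10.3 ± 6.96 (SD, n = 6) in WT and 8.53 ± 4.18 (SD, n = 6) in KO libraries. The difference was -0.20 on the log2(signal + 1) scale (two-sided exact permutation test, p = 0.636), so genotypes below are those of the labels. The LSK marker list was present in every library (summed signal 2144 to 2931 in WT and 1946 to 2644 in KO, with 9 of 10 markers at a mean signal of at least 10), although Ly6a, which encodes Sca-1, was low at 4.84 to 17.4, and Procr was at 0 in the lowest library. Among the lists of other cell types, the summed B cell markers were the highest, at 38.2 to 202 in WT and 55.3 to 299 in KO, followed by monocyte and macrophage markers at 38.0 to 162 and 46.1 to 163. Granulocyte markers were at 17.2 to 39.5 in WT and 19.5 to 42.8 in KO, reaching less than the megakaryocyte list below. Erythroid markers reached at most 31.8 and T cell markers at most 7.51. The megakaryocyte list, in which 1 of 5 genes had a mean signal of at least 10, ranged from 15.8 to 56.1 in WT and from 24.6 to 87.3 in KO (log2 difference 0.74, two-sided exact permutation test, p = 0.0693). The B cell, monocyte and macrophage, and granulocyte lists differed by 0.13, 0.30 and 0.32 (exact permutation p = 0.833, 0.474 and 0.197), and the part of these cells in the results below was not tested. WT replicate 3 and KO replicate 7 were low in Y-linked transcripts (26.6 and 49.7, against 189 to 435 in the others). The share of signal assigned to Lars2, a mitochondrial leucyl-tRNA synthetase gene, ran from 15.6% to 36.2% and was lowest in replicates 2 and 3 of both labels. Shared sequence was counted for the core autophagy genes only, so whether all of this signal came from Lars2 transcripts was not tested.

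None of the core autophagy genes passed the test of KO against WT. The limma fit on log2(signal + 1) gave every member the same Benjamini-Hochberg adjusted p of 0.9996, and the share called was 0.0% of the 8887 genes whose signal averaged 10 or more, among them all 10 members. At an unadjusted limma p under 0.05 stood 1 of the 10 (Ulk1), against 3.67% of all genes tested and 1.98% for genes higher in KO alone. For no member were the WT and KO ranges apart, a pattern seen in 0.09% of the genes tested. The fitted log2 difference was positive for 5 members and negative for 5, with a median of 0.04 beside a median of 0.00 over all genes tested. In these bulk samples fewer cells of a type and less RNA per cell cannot be told apart.

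**Figure D1:**
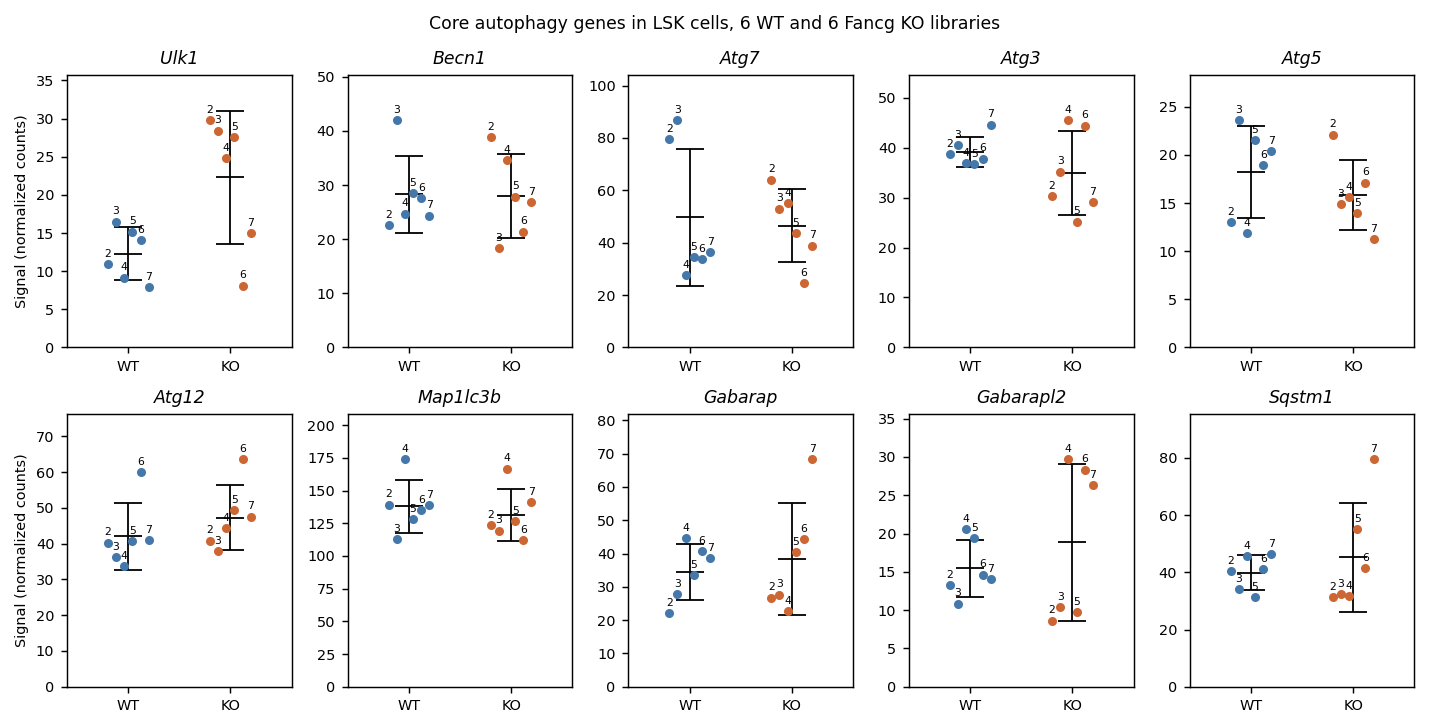
Signal of each core autophagy gene (y axis, normalized counts from 0) in the 6 WT and 6 KO libraries (points, numbered by replicate; bars, mean ± SD). Replicates 2 to 5 of KO lie above every WT library for Ulk1, and the WT and KO points overlap for all 10 genes.

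Ulk1 encodes the serine/threonine kinase that starts autophagosome formation when nutrients or energy fall short. Its signal ran from 7.90 through a median of 12.5 to 16.5 in WT libraries and from 8.12 through 26.2 to 29.8 in KO libraries. KO replicates 2 to 5, at 24.8 to 29.8, lay above every WT library, while KO replicate 6 (8.12) and KO replicate 7 (15.0) lay within the WT range. The mean was 12.3 ± 3.48 in WT and 22.3 ± 8.74 in KO (SD, n = 6 each), a log2 difference of 0.73 (SE 0.31, 95% interval 0.07 to 1.40, 1.66-fold). The unadjusted limma p was 0.0319, with 204 genes ahead of it in that order, and the two-sided exact permutation test of the same values gave p = 0.0584. The values rested on about 7.16 to 34.0 reads per library. Leaving out KO replicate 6 raised the log2 difference to 0.98, whereas without any of KO replicates 2 to 5 or WT replicates 2, 4 or 7 it was 0.63 to 0.71 and Ulk1 was no longer under the unadjusted limma threshold of 0.05. The E-box was not in the window of Ulk1 printed above, which says only that these letters were not in it.

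Becn1 encodes Beclin 1, the scaffold of the class III PI3-kinase complex that lays down the phosphoinositide needed for the growing membrane. Its signal was 22.5 to 42.0 in WT (median 26.1) and 18.4 to 38.9 in KO (median 27.4). The groups covered nearly the same range, with 28.3 ± 7.08 in WT and 28.0 ± 7.74 in KO (SD, n = 6 each) and a log2 difference of -0.03 (SE 0.21, 95% interval -0.48 to 0.42, exact permutation p = 0.896). Its level is uncertain because 40.0% of its distinct 31-base stretches also occur in other genes, 39.6% in the overlapping gene Cntd1. The sum of both genes differed by 0.15 (two-sided exact permutation test, p = 0.420).

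**Figure D2:**
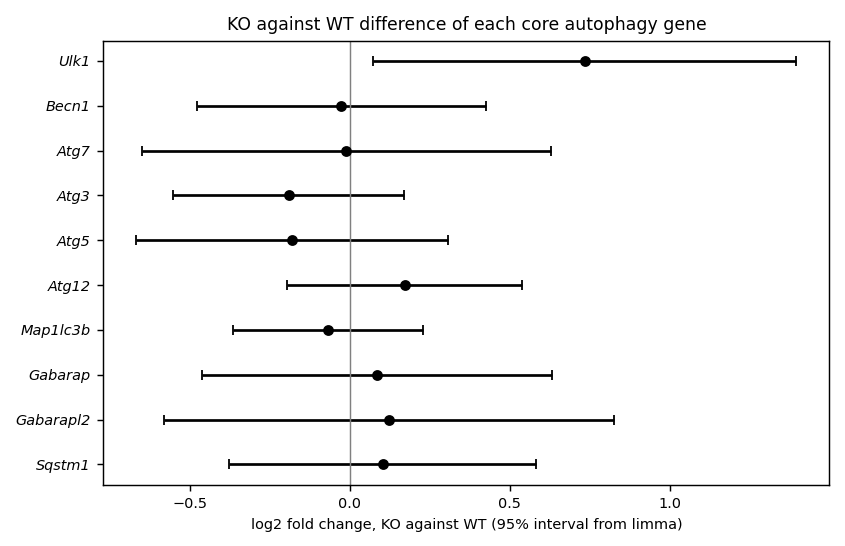
Fitted log2 fold change of KO against WT for each core autophagy gene (points) with its 95% interval from limma (bars), on log2(signal + 1). The interval of Ulk1 lies above 0, from 0.07 to 1.40, and those of the other 9 genes span it.

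The conjugation genes had log2 differences of both signs, each with a 95% interval that spanned 0. Atg7, the E1-like enzyme that activates both ATG12 and the ATG8 proteins, ran from 27.6 through a median of 35.4 to 86.8 in WT and from 24.5 through 48.3 to 64.1 in KO. Its highest values were in WT replicates 3 and 2 (86.8 and 79.6), followed by KO replicates 2, 4 and 3 (64.1, 55.1 and 53.0), so the spread lay between replicates of a label and not between labels. The means were 49.8 ± 26.2 in WT and 46.5 ± 14.0 in KO (SD, n = 6 each), and the log2 difference was -0.01 (SE 0.30, 95% interval -0.65 to 0.63, exact permutation p = 0.981). Its sign depended on the scaling, at 0.045 when libraries were brought to equal totals without Lars2.

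Atg3, the E2-like enzyme that passes ATG8 proteins to the membrane lipid, ran from 36.7 through 38.2 to 44.6 in WT and from 25.2 through 32.7 to 45.5 in KO. The WT libraries lay close together, 4 KO libraries lay below all of them and 1 lay above. The mean was 39.2 ± 2.99 in WT and 34.9 ± 8.39 in KO (SD, n = 6 each), with a log2 difference of -0.19 (SE 0.17, 95% interval -0.55 to 0.17, exact permutation p = 0.199). Atg5, which is joined to ATG12 in the complex that directs ATG8 lipidation, ran from 11.9 through 19.7 to 23.6 in WT and from 11.3 through 15.2 to 22.1 in KO. Only 1 KO library was below the lowest WT library and none above the highest, and the log2 difference was -0.18 (SE 0.23, 95% interval -0.67 to 0.31, exact permutation p = 0.379). Atg12, the ubiquitin-like partner of ATG5, ran from 33.7 through 40.5 to 59.9 in WT and from 37.9 through 45.9 to 63.6 in KO. Replicate 6 was the highest library under both labels. The mean was 42.0 ± 9.26 in WT and 47.3 ± 9.03 in KO (SD, n = 6 each), with a log2 difference of 0.17 (SE 0.17, 95% interval -0.20 to 0.54, exact permutation p = 0.299). Thus the 3 genes with the E-box (Atg3, Atg5 and Atg7) had log2 differences of -0.19, -0.18 and -0.01, none past the test.

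Among the ATG8 genes, Map1lc3b, which encodes LC3B, the usual marker of autophagosomes, was the steadiest. It ran from 113 through a median of 137 to 174 in WT and from 112 through 125 to 167 in KO. The groups overlapped almost completely, at 138 ± 20.1 in WT and 132 ± 19.8 in KO (SD, n = 6 each). The log2 difference was -0.07 (SE 0.14, exact permutation p = 0.554), and the 95% interval of the fold ran from 0.776 to 1.17. This interval of the log2 difference, -0.37 to 0.23, was the narrowest of the 10 genes.

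Gabarap, of the other ATG8 branch, which acts late in autophagosome closure and fusion, ran from 22.1 through 36.0 to 44.6 in WT and from 22.7 through 34.0 to 68.3 in KO. KO replicate 7 alone was above the WT range. The log2 difference was 0.08 (SE 0.26, 95% interval -0.46 to 0.63, exact permutation p = 0.768), and it was -0.15 without the 2 libraries low in Y-linked transcripts, of which KO replicate 7 is 1. No 31-base stretch of Gabarap occurs in another annotated gene.

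Gabarapl2, which encodes GATE-16, a further member of that branch, ran from 10.8 through 14.3 to 20.5 in WT and from 8.63 through 18.4 to 29.7 in KO. The KO libraries were more widely spread than the WT libraries. In KO, 3 libraries (replicates 4, 6 and 7, at 26.3 to 29.7) lay above every WT library and 3 (replicates 2, 3 and 5, at 8.63 to 10.4) below. Replicates 2, 3 and 5 of KO rested on about 8.0, 12.5 and 11.7 reads. The SD was likewise larger in KO for Atg3, Becn1, Ulk1, Sqstm1 and Gabarap, and smaller for Atg5, Atg7, Atg12 and Map1lc3b. The means were 15.5 ± 3.76 in WT and 18.9 ± 10.2 in KO (SD, n = 6 each), and the log2 difference was 0.12 (SE 0.33, 95% interval -0.58 to 0.82, exact permutation p = 0.745). The difference in spread was not tested. Of its 31-base stretches 15.3% occur elsewhere, mainly in pseudogenes with a mean signal under 1.

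The balance among the ATG8 genes was compared within each library as log2 ratios, each the difference of 2 log2(signal + 1) values. The ratio of Map1lc3b to Gabarap was 1.99 ± 0.31 in WT and 1.84 ± 0.65 in KO (SD, n = 6 each; two-sided exact permutation test, p = 0.617). For Map1lc3b to Gabarapl2 it was 3.10 ± 0.24 in WT and 2.91 ± 0.74 in KO (exact p = 0.554), and for Gabarap to Gabarapl2 it was 1.10 ± 0.32 in WT and 1.07 ± 0.83 in KO (exact p = 0.920). None of the 3 ratios differed beyond the spread of the libraries (adjusted exact permutation p = 0.920 for each). Per kilobase of transcript, Map1lc3b made up 61.3% ± 4.27 of the summed signal of the 3 genes in WT and 57.8% ± 9.26 in KO, Gabarap 28.4% ± 4.16 and 30.4% ± 8.60, and Gabarapl2 10.3% ± 1.62 and 11.8% ± 5.17 (SD, n = 6 each).

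Sqstm1 encodes p62, the receptor that binds ubiquitin-tagged cargo and LC3 and is itself degraded by autophagy. Its signal ran from 31.2 through 40.7 to 46.4 in WT and from 31.2 through 36.9 to 79.5 in KO. KO replicates 5 (55.0) and 7 (79.5) lay above every WT library, and the other 4 lay within the WT range. The mean was 39.8 ± 6.08 in WT and 45.2 ± 19.1 in KO (SD, n = 6 each), with a log2 difference of 0.10 (SE 0.23, 95% interval -0.38 to 0.58, exact permutation p = 0.725). It was -0.11 without the 2 libraries low in Y-linked transcripts. The gene shares 16.3% of its 31-base stretches with Mrnip, and the sum of both differed by 0.16 (two-sided exact permutation test, p = 0.558).

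The order of levels was taken per kilobase of the principal transcript, as the mean ± SD over the 12 libraries. Map1lc3b stood first at 53.2 ± 7.63 and was above Gabarap (27.0 ± 9.55) in 12 of 12 libraries, and Gabarap was above Sqstm1 (20.9 ± 6.79) in 11 of 12. Sqstm1 and Atg3 (18.0 ± 3.11) were not apart, with Sqstm1 higher in 7 of 12, and Atg3 was above Atg7 (12.8 ± 5.34) in 9 of 12. The next 5 ran close together, from Atg7 through Gabarapl2 (10.2 ± 4.50), Atg12 (9.37 ± 1.92) and Atg5 (7.24 ± 1.80) to Becn1 (6.44 ± 1.62), each neighbour being the higher in only 5 to 8 of 12 libraries. Ulk1 was the lowest at 3.32 ± 1.58, under Becn1 in 11 of 12 libraries. Each level rests on the transcript length used, 4365 bases for Becn1 and 4765 for Atg12, and a shorter transcript would place a gene higher. The annotated transcripts of Atg12 run from 1274 to 4765 bases.

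How the members varied together among libraries was described by correlations, of which none passed adjustment. With the mean of each label removed, the 45 pairs of members gave 20 positive and 25 negative correlations over 12 libraries. At an unadjusted permutation p under 0.05 stood 6 pairs by Pearson's r, and none passed adjustment over the 45 pairs by r or by rho. Pairs of other genes were not counted for comparison. With the label alone removed, the strongest positive pair was Sqstm1 and Gabarap, the receptor and an ATG8 protein, with r = 0.82 (permutation p = 0.00137, adjusted 0.0616) and rho = 0.73 (permutation p = 0.00893, adjusted 0.201). It was 0.65 without KO replicates 2 and 7, 0.44 in WT alone and 0.94 in KO alone. The strongest negative pair was Atg7 and Gabarap, with r = -0.72 (permutation p = 0.00838, adjusted 0.189) and rho = -0.77 (permutation p = 0.00497, adjusted 0.201). It was -0.68 without WT replicates 2 and 3, -0.91 in WT alone and -0.66 in KO alone. These values share the libraries' scaling and composition. With the label removed in the same way, r with the log2 share on Lars2 was -0.91 for Atg7, 0.72 for Gabarap and 0.51 for Sqstm1. With the log2 total signal it was 0.87, -0.51 and -0.16 for the same genes. The part of composition in the correlations of these pairs was not tested. The order of the pairs did not hold once the replicate number was removed as well, a choice made after seeing the data. The WT and KO values of a number then mirror each other, so each such r rests on 6 differences and not on 12 libraries. No p-value was computed for these r values. The highest r was then that of Atg7 with Atg12, at 0.95 in place of -0.48, and the lowest were those of Atg5 with Sqstm1 (-0.80) and Atg3 with Gabarap (-0.80 in place of -0.32), while Sqstm1 with Gabarap was at 0.73 and Atg7 with Gabarap at -0.50.

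**Figure D3:**
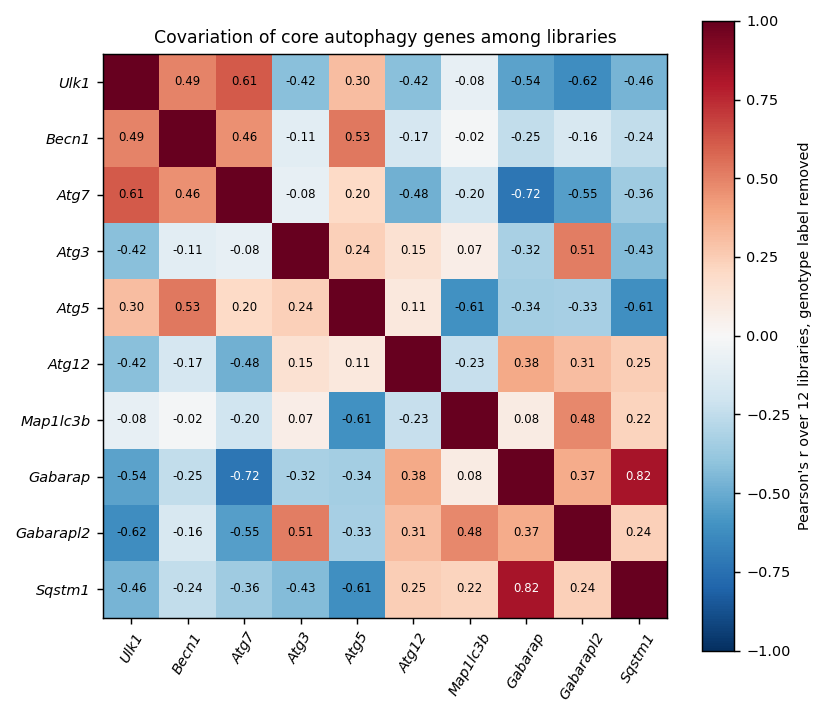
Pearson's r (colour and number) for each pair of core autophagy genes over 12 libraries, on log2(signal + 1) with the mean of each label removed. Sqstm1 with Gabarap (0.82) is the highest value and Atg7 with Gabarap (-0.72) the lowest.

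The composition of the libraries moved with several members. In replicates 2 and 3 of both labels, where Lars2 took 15.6% to 19.0% of the signal, Atg7 was 53.0 to 86.8, and in the other 8 libraries, where Lars2 took 24.7% to 36.2%, it was 24.5 to 55.1. Gabarap went the other way, at 22.1 to 27.7 in the former and 22.7 to 68.3 in the latter. For Ulk1, with the mean of each label removed, r with the log2 share on Lars2 was -0.56 and rho was -0.70. The KO libraries with a low Lars2 share were at 28.4 and 29.8. The WT libraries with a low share were at 10.9 and 16.5. In replicate 6, KO (35.1% on Lars2) was at 8.12 and WT (36.2% on Lars2) at 14.1. Replicates 4, 5 and 7 were at 24.8, 27.6 and 15.0 in KO and at 9.15, 15.2 and 7.90 in WT. The part of library composition in the values of these genes was not tested. With the libraries brought to equal totals without Lars2, the log2 difference of Ulk1 was 0.78.

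**Figure D4:**
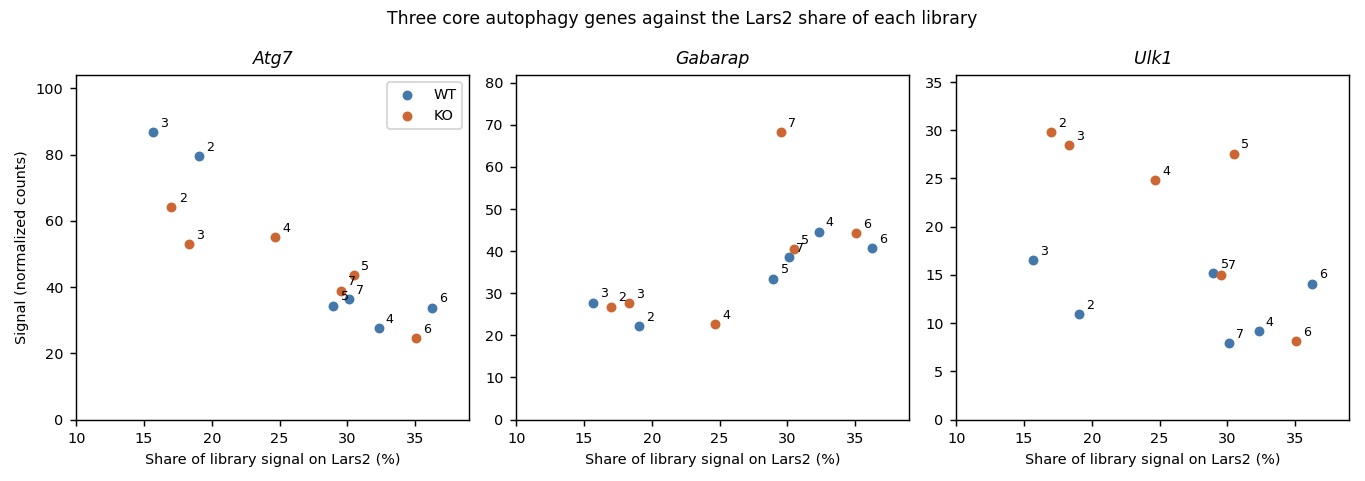
Signal of Atg7, Gabarap and Ulk1 (y axis, normalized counts from 0) against the share of each library's signal on Lars2 (x axis, percent), with points numbered by replicate and coloured by label. Atg7 is at 53.0 to 86.8 in the 4 libraries with the lowest share, and Gabarap at 22.1 to 27.7.

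The rest of the pathway was examined in a list of 72 autophagy genes in 10 roles, the 10 members included. All were in the table and 59 had a mean signal of at least 10. None passed the adjusted test (0.0% over all genes), 30 were higher and 29 lower in KO, and their median log2 difference was 0.00, as over all genes tested. At an unadjusted limma p under 0.05 stood 5 of 59 (8.47%, beside 3.67% over all genes), 3 of them higher (1.98% over all genes) and 2 lower (1.69%). Every role held genes higher and genes lower in KO, and whether a role moved as a whole was not tested. The ULK1 complex, of which Atg101 was below the minimum signal, had 2 genes higher and 2 lower, with Ulk2, the paralog of Ulk1, at -0.32 (exact permutation p = 0.0779). The class III PI3-kinase complex had 4 higher and 3 lower, the ATG12 conjugation genes 3 and 2, and the ATG8 genes with their enzymes 5 and 3.

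Outside the members, the 4 genes at an unadjusted limma p under 0.05 fell in different roles. Calcoco1, a cargo receptor for the endoplasmic reticulum, had a signal of 25.6 ± 5.50 in WT and 13.8 ± 5.71 in KO (SD, n = 6 each), a log2 difference of -0.92 (SE 0.27, unadjusted limma p = 0.00383, two-sided exact permutation p = 0.00866). Tfe3, a transcription factor of lysosome and autophagy genes, was 24.7 ± 13.2 in WT and 41.2 ± 11.3 in KO (SD, n = 6 each), a log2 difference of 0.80 (SE 0.27, unadjusted limma p = 0.0107, exact permutation p = 0.0260). Plekhm1, an adaptor between autophagosome and lysosome, was 22.0 ± 4.22 in WT and 31.8 ± 7.37 in KO (SD, n = 6 each), a log2 difference of 0.50 (SE 0.21, unadjusted limma p = 0.0288, exact permutation p = 0.0303). Tmem41b, a lipid scramblase needed for membrane growth, was 14.5 ± 4.32 in WT and 9.44 ± 1.78 in KO (SD, n = 6 each), a log2 difference of -0.54 (SE 0.25, unadjusted limma p = 0.0478, exact permutation p = 0.0238). With Ulk1 these were the 5 genes named above, and like it each had an adjusted limma p of 0.9996. Of the roles in which no gene outside the members stood under this threshold, the smallest limma p belonged to Ulk2, given above, in the ULK1 complex, to Ambra1 (log2 difference 0.48, exact permutation p = 0.136) in the lipid kinase complex, to Atg16l2 (0.47, exact p = 0.0693) in ATG12 conjugation, to Atg4c (0.42, exact p = 0.0931) in ATG8 processing, to Bcl2l13 (-0.22, exact p = 0.537) in mitophagy and to Ccpg1 (0.49, exact p = 0.0931) in ER-phagy.

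**Figure D5:**
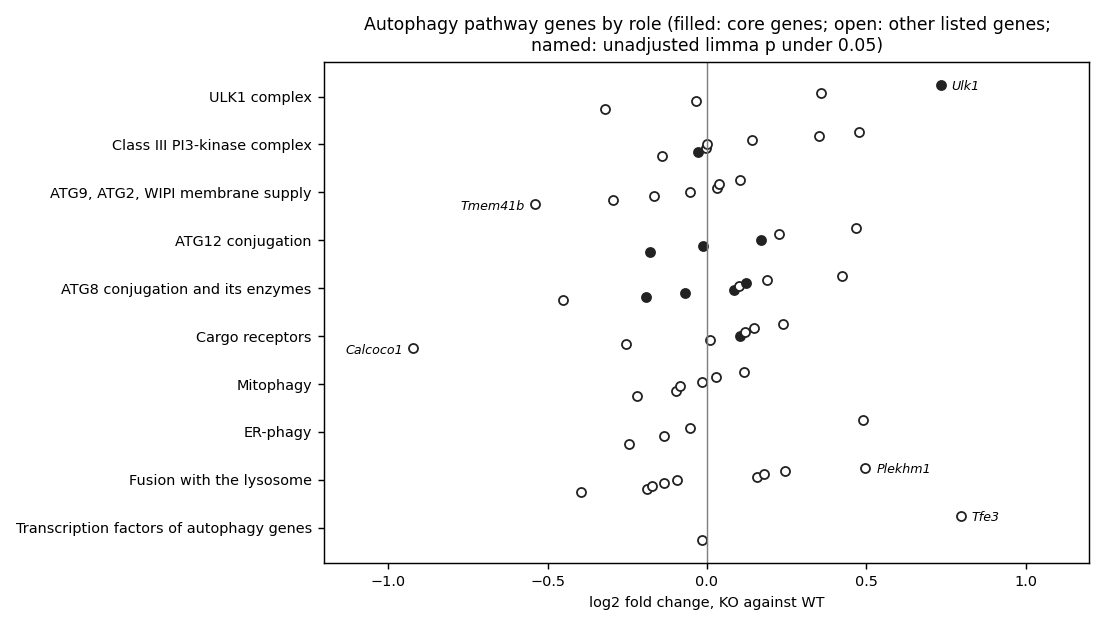
Fitted log2 fold change of KO against WT for the 59 tested autophagy genes, by role (filled points, core genes; open points, other listed genes; vertical offsets only separate points). Names mark the 5 genes with an unadjusted limma p under 0.05, of which Ulk1, Plekhm1 and Tfe3 lie above 0 and Calcoco1 and Tmem41b below.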

How the data were processed

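RNA-seq libraries were made by the authors from sorted LSK cells with the CATS RNA-seq Kit v2, and deposited as a table of normalized counts, a signal per gene and library. Per the labels kallisto estimated the counts; its version and the mouse build are not given in the sources used here. The deposited values were not whole, and whole reads could not be recovered, so no count test was run; the value of 1 read was taken as the most frequent positive value of a library. Columns were mapped to the labels by library name. Values were tested as log2(signal + 1) with limma 3.58.1 (R 4.3.3), empirical Bayes with trend, two-sided, over the 8887 genes whose signal averaged 10 or more, with Benjamini-Hochberg adjustment over all of them and a threshold of 0.05. Single values were tested by exact permutation of 6 against 6 libraries (924 divisions, smallest p 0.0022), and correlations with 100000 permutations (SciPy 1.17.1). Shared sequence was counted as distinct 31-base stretches in the GENCODE transcripts of GRCm38. The limma script was tested on simulated data.

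The members, the pathway list and the marker lists were chosen with earlier results of these data known. The genes named were all members, the listed pathway genes with an unadjusted limma p under 0.05, the gene with the smallest p in each role, Fancg, and the strongest positive and negative correlations. The alternatives were other pseudocounts, filters, scalings, no trend, the replicate number as a block and libraries left out. The read numbers given beside low values speak to counting error only.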

Additional observations from a re-analysis of the deposited data

Results flagged for a closer look

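In each of 26 groups of 6 libraries the extreme value was compared with the others by Dixon's ratio, which chance passes in about 1 of 20 groups (1.3 expected), and 3 values stood apart. Atg12 in WT replicate 6 was at a signal of 59.9, against 33.7 to 41.1 in the other WT libraries. Becn1 in WT replicate 3 was at 42.0, against 22.5 to 28.5. The log2 ratio of Map1lc3b to Gabarap in WT replicate 2 was 2.60, against 1.70 to 1.99.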

How the results depend on the processing

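No member, pathway gene or other gene passed the adjusted limma test under any of the 10 other settings or the 12 fits that each left out 1 library (0 calls in each). At an unadjusted limma p under 0.05 there were 326 genes. With no filter the number was 836, with a minimum mean of 50 it was 91, and with equal totals without Lars2 it was 124. That minimum left Map1lc3b as the only member tested, with 0 members and 0 pathway genes at that threshold and a member median of -0.069, and equal totals without Lars2 left 3 pathway genes. The causes were not tested, apart from the number of genes tested under the filters.

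Ulk1 kept its direction in every fit that held it, at 0.60 to 0.91 over the other settings (unadjusted limma p 0.0198 to 0.0363) and 0.63 to 0.98 with 1 library left out (p 0.00172 to 0.0748). Signs turned for 5 members whose differences were within the spread. Equal totals without Lars2 gave 0.045 for Atg7 and 0.025 for Becn1. Without the 2 libraries low in Y-linked transcripts the log2 differences were 0.21 for Atg7, 0.092 for Becn1, -0.11 for Sqstm1, -0.15 for Gabarap, -0.094 for Gabarapl2 and 0.0064 for the ratio of Map1lc3b to Gabarap, and Atg5 was at -0.015 in place of -0.18. Becn1 summed with Cntd1 gave 0.15, chosen after seeing the data.

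With 1 library left out the ranges were -0.15 to 0.18 for Atg7, -0.13 to 0.090 for Becn1, -0.10 to 0.21 for Gabarap, -0.039 to 0.30 for Gabarapl2 and -0.075 to 0.19 for Sqstm1. They were -0.29 to -0.094 for Atg5, 0.083 to 0.28 for Atg12, -0.27 to -0.11 for Atg3 and -0.14 to -8.8e-05 for Map1lc3b, which kept their signs. The median over members ran from -0.06 to 0.12. The ratio of Map1lc3b to Gabarap ran from -0.35 to 0.0078, that of Map1lc3b to Gabarapl2 from -0.35 to 0.00076 and that of Gabarap to Gabarapl2 from -0.21 to 0.25. Between 0 and 1 members, 2 and 6 pathway genes, and 275 and 383 of all genes were then at an unadjusted p under 0.05. The pathway count was 2 without KO replicate 2 or KO replicate 4 and 3 without WT replicate 4.

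The replicate numbers were not taken as a pairing, because the labels name no shared animal, litter or day and not every same-numbered pair passed a correlation of 0.1. Same-numbered WT and KO libraries had correlations of their deviations of 0.0862 to 0.362, over 0.1 in 4 of 6, with a mean of 0.196 against -0.0390 for different numbers, and 9 of 12 libraries correlated best with their own number, a hint from the data, not the design. With the replicate number as a block 0 members were called, and the unadjusted limma p of Ulk1 was 0.0275 (adjusted 0.889). The unadjusted counts were 1 member, 6 pathway genes and 476 of all genes, with Ulk2 and Ccpg1 then under 0.05 and Tmem41b not (block p 0.0356, 0.0220 and 0.0624). Of the tested pathway genes, Atg12 (block p 0.246), Ccpg1 and Plekhm1 were higher in KO in 6 of 6 numbers, Ulk2 in 0. Atg9b, below the minimum signal at a mean of 3.58, was also higher in 6 of 6. Each had the least possible exact sign-flip p (0.031). The share of all genes was not counted. Depth limits low genes most: the lowest Ulk1 value rested on about 7.16 reads.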
